A study of Mus musculus with 10 samples.

Results

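The cytosolic ribosomal protein genes of the mouse cochlea were followed in 10 mice. They were taken by name as protein-coding genes whose symbol starts with Rpl or Rps and a number, the stalk genes Rplp0, Rplp1 and Rplp2, and Rpsa. The symbol rule matched 104 protein-coding genes, and 19 of these were left out, namely 10 kinases named Rps6k, 8 genes with -ps in the symbol, and Rpl3l. This left 85 of the 54532 gene identifiers, 51 named for the large subunit and 34 for the small subunit, on 19 chromosomes, with 4 on the X chromosome. One of them, Rps19bp1, encodes a protein that binds a ribosomal protein and is not part of the ribosome itself, so the name rule is slightly wider than its title.

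Cochlear RNA was sequenced at 12 months of age. All animals of both groups were mtKeima mice, which carry a fluorescent reporter of the delivery of mitochondria to lysosomes. In the NR-treated group (5 mice), nicotinamide riboside, a precursor of NAD+, was given in drinking water at 7 mg/ml (24 mM) from 2 months of age, for 10 months. The non-treated group (Vehicle, 5 mice) had water alone. The labels call all of them female and the study's methods call them male. The 4 Y-linked genes Ddx3y, Eif2s3y, Uty and Kdm5d lay between 24.3 and 85.0 CPM (counts scaled to library size) across the 10 libraries. The female-expressed Xist lay between 0.088 and 0.405 CPM. By these genes all 10 libraries were from males, as in the methods and against the labels. Each library held 17060379 to 24419230 counts on genes, and markers of hair cells, stria vascularis, spiral ganglion neurons and Schwann cells were all detected, together with those of bone, blood and bone marrow cells.

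Cytosolic ribosomes build nearly all cell proteins, and the ribosomal protein genes supply the protein part of the large and small subunits in near-equal amounts. Their mRNAs are short and abundant, and most start with an unbroken stretch of C and T, the terminal oligopyrimidine (TOP) motif, through which the growth kinase complex mTORC1 controls their translation. Because that control acts on translation, the level of these mRNAs need not follow the output of ribosomes. Most of the genes also have many processed pseudogene copies in the genome, so short reads from them can match several places.

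Runs of C and T, the letters of the TOP motif, lay at or near the annotated starts of many of the genes. RefSeq promoter sequence (GRCm38.p6, the patched form of the mm10 build that the counts use) was found for 65 of the 85 genes, and the windows below hold 30 bases with the start site at their middle. They are shown for the stalk gene Rplp2, for Rps27, and for the genes with the lowest levels per length, whose measurement is described further on. Capitals mark the longest run of 4 or more C or T that reaches within 5 bases of the start, and the first where runs tie. A window all in lower case has no such run. The runs were taken on either side of the annotated start, so a marked run need not be a TOP motif. A window without one does not show that the mRNA lacks the motif. In Rps27rt an equally long run, ctttcc, begins at the start itself and is left in lower case.
Rplp2, chr7:141447636-141447665, plus strand: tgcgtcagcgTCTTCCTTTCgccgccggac
Rps27, chr3:90213634-90213663, minus strand: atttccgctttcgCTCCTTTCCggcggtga
Rps27rt, chr9:114982725-114982754, minus strand: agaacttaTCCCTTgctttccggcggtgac
Rpl13a, chr7:45128731-45128760, minus strand: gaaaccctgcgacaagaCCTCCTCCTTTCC
Rps10, chr17:27635230-27635259, minus strand: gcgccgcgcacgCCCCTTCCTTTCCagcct
Rpl24, chr16:55966260-55966289, plus strand: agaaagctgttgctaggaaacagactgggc
Rpl36al, chr12:69184053-69184082, minus strand: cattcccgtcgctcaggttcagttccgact

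A run of 6 or more C or T within 5 bases of the start was present in 45.3% of the 75 annotated starts of 64 ribosomal protein genes (Rps19bp1 left out), against 20.2% of all 32817 RefSeq starts. The median run was 5 bases against 3. Among short words read on both strands from 250 bases before to 50 after the start, CCGGAA, the core of the sites bound by ETS factors such as GABP, was in 49.3% against 14.9%. AAGATGG, part of the site of YY1, was in 16.0% against 6.34%, CTTTCC was in 52.0% against 26.6%, and TATAAA was in 9.33% against 13.6%. These shares describe letters in a window, and CTTTCC can overlap the run of C and T itself.

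Ribosomal protein genes took a small and steady share of the reads in the cochlea. The share of all counts that fell on the 85 genes was 2.74, 2.33, 2.62, 2.54 and 2.64% in NR 1 to NR 5, and 2.69, 2.51, 2.42, 2.23 and 2.54% in Vehicle 1 to Vehicle 5. The groups overlapped over most of their range, with means of 2.57% ± 0.153 (SD, n = 5) in NR-treated mice and 2.48% ± 0.171 in non-treated mice. Counts on large-subunit genes were 1.42 to 1.499 times those on small-subunit genes in every mouse, so that the balance between the subunits moved far less than the total. The ratio was highest in the mice with the lowest shares, at 1.477 in NR 2, 1.487 in Vehicle 3 and 1.499 in Vehicle 4. In the other mice it was 1.42 to 1.451. The -ps genes with ribosomal protein names took 0.0271 to 0.0351% of the counts.

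**Figure D1:**
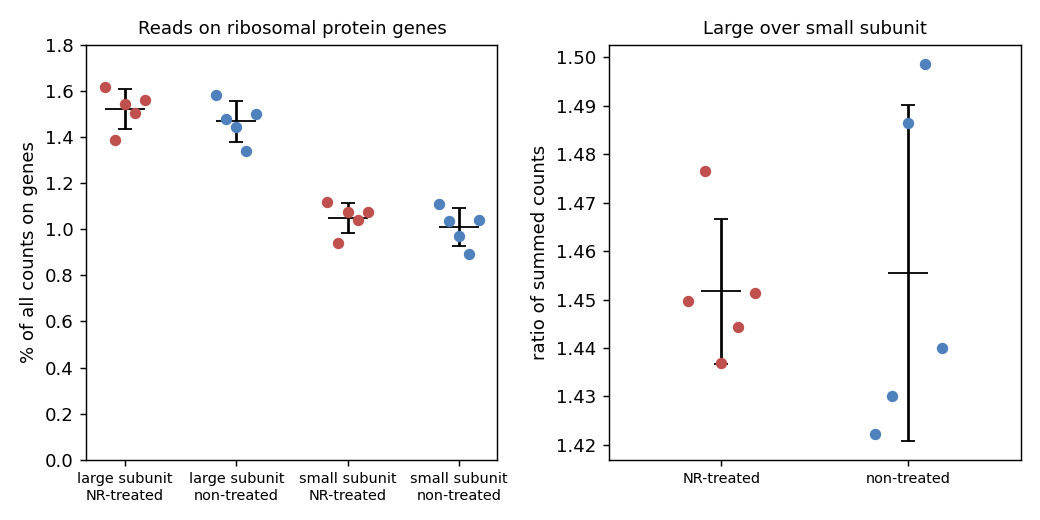
Left, share of counts on large-subunit and small-subunit genes in each mouse (points), with the group mean and SD (black); right, the ratio of large-subunit to small-subunit counts, on an axis that does not start at 0. NR-treated and non-treated mice overlap in every column, and the ratio stays between 1.42 and 1.499.

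Of the 85 genes, 83 passed the filter on low counts and were tested together with 18246 other genes. The remaining 2 are Rpl10l and Rpl39l, paralogs known for their expression in the testis. Rpl10l had 0 counts in all 10 mice, and a count of 0 allows up to 3 counts, or 0.123 to 0.176 CPM at these depths (counting error only). Rpl39l had 5, 9, 5, 0 and 4 counts in the NR-treated mice and 5, 0, 7, 1 and 2 in the non-treated mice. The other genes were spread over a wide range, from 0.667 CPM for Rpl36al to 763 CPM for Rplp1, with a median of 299 CPM, above the mean level of 97.7% of all tested genes.

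No ribosomal protein gene was called higher or lower with NR. In edgeR's quasi-likelihood test, 0 of the 83 genes were higher and 0 were lower at an unadjusted p of 0.05, where 4.83% of all tested genes were higher and 4.88% were lower. With DESeq2 the counts were 0 and 0 as well, beside 3.50% higher and 3.08% lower of all genes with a p, and with limma voom 0 and 0 beside 5.13% and 4.36%. At an adjusted p of 0.05 edgeR called 0 genes of any kind (0% of those tested). The smallest p among the 83 genes was 0.163, with an adjusted p of 0.648. For 0 of them did the 5 NR-treated mice lie entirely above or below the 5 non-treated mice, which was the case for 1.65% of all tested genes. The log2 fold changes ran from -0.21 to 0.16, and their median size was 0.0327 against 0.108 over all tested genes.

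A missed threshold does not show that the levels were equal, so the intervals are given. For 78 of the 83 genes the 95% confidence interval of the fold change lay inside 1.25-fold in either direction (0.32 on the log2 scale), and the outermost bounds among these were -0.28 and 0.29. The other 5 were Rps27rt, Rpl36al, Rpl13a, Rps10 and Rpl24, the genes with the lowest levels per length, and their intervals were wider. The median standard error was 0.0721 for ribosomal protein genes and 0.122 over all tested genes.

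**Figure D2:**
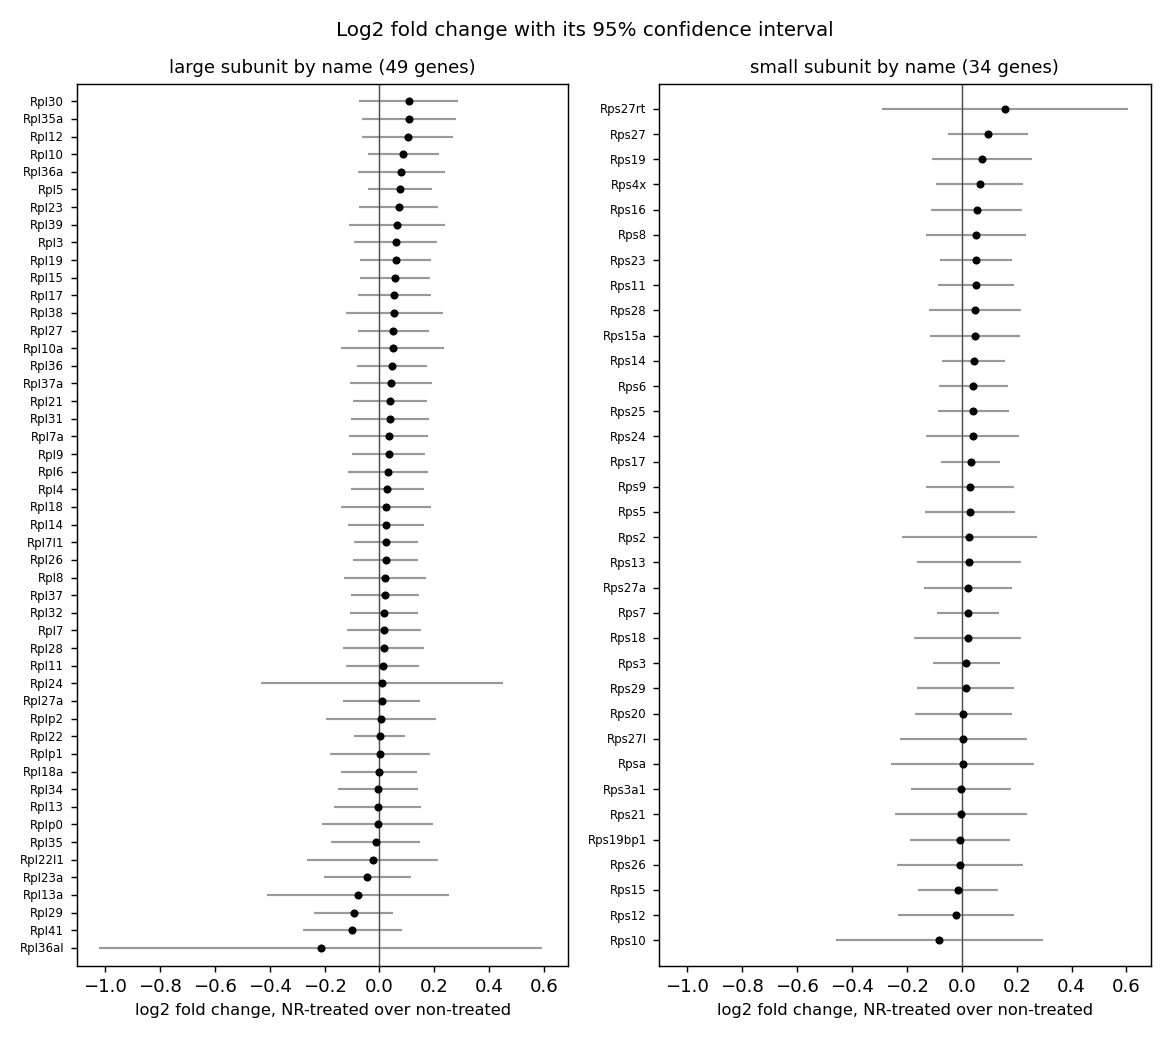
Log2 fold change of NR-treated over non-treated mice (points) with its 95% confidence interval (grey bars) for the 49 large-subunit and 34 small-subunit genes tested, each ordered by value. Every interval crosses 0, and the widest belong to Rpl36al and Rps27rt.

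The point estimates leaned slightly to one side. The log2 fold change was above 0 for 65 of 83 genes (38 of 49 large-subunit and 27 of 34 small-subunit genes), 78.3% against 47.1% of all tested genes, and the median was 0.03 against -0.01. The genes moved together from mouse to mouse, as described further on, so these 83 values are not 83 separate observations. The number above 0 depended on single mice, with 44 without Vehicle 4, 76 without NR 2 and 78 without Vehicle 2, and it was 75 with upper quartile factors.

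Rpl10, an X-linked large-subunit gene, had the smallest p. Its level was 678, 578, 619, 618 and 612 CPM in NR 1 to NR 5 and 598, 579, 606, 570 and 571 CPM in Vehicle 1 to Vehicle 5. NR 1 stood highest, NR 2 lay within the non-treated range, and the log2 fold change was 0.09 (95% interval -0.04 to 0.22). All 4 X-linked genes, Rpl10, Rpl36a, Rpl39 and Rps4x, had log2 fold changes between 0.06 and 0.09, and 0 of them passed the test.

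Rps27, a small-subunit gene, was the one gene that passed the unadjusted threshold under any alternative. It was at 305, 284, 318, 311 and 261 CPM in NR-treated mice and 288, 296, 271, 259 and 271 CPM in non-treated mice. NR 1, NR 3 and NR 4 lay above every non-treated mouse and NR 5 near the bottom, with a log2 fold change of 0.09 (adjusted p = 0.662 in edgeR). Without NR 5 the log2 fold change was 0.15, with an unadjusted p of 0.0432, in a fit where 4.22% of all tested genes were higher. Rpl29 and Rpl41, both of the large subunit, had the lowest estimates among well-measured genes, -0.09 (adjusted p = 0.659) and -0.10 (adjusted p = 0.703) in edgeR. Rpl41 was at 528, 456, 538, 536 and 525 CPM in NR-treated mice and 600, 604, 503, 486 and 574 CPM in non-treated mice, and Vehicle 3 and Vehicle 4 fell inside the NR-treated range.

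The stalk proteins, which recruit the translation factors that drive the ribosome, were not called either. Rplp0, the base of the stalk, was at 657 ± 73.5 CPM in NR-treated and 660 ± 56.2 CPM in non-treated mice (SD, n = 5 each). Its partner Rplp1 was at 763 ± 24.3 and 762 ± 86.2 CPM, and Rplp2 at 360.0 ± 23.6 and 358 ± 45.4 CPM. Their log2 fold changes were -0.01, 0.00 and 0.01, with intervals of -0.21 to 0.19, -0.18 to 0.18 and -0.19 to 0.21.

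Rpl5 and Rpl11 bind the 5S ribosomal RNA and, when ribosome assembly is disturbed, hold back the p53 ligase Mdm2. Rpl5 was at 377, 327, 349, 343 and 363 CPM in NR-treated mice and 343, 338, 335, 321 and 331 CPM in non-treated mice, a log2 fold change of 0.08 (-0.04 to 0.19). NR 2 and NR 4 fell within or at the edge of the non-treated range. Rpl11 was at 315 ± 20.8 and 312 ± 14.8 CPM, a log2 fold change of 0.01 (-0.12 to 0.15). Rps27a, which is made as a fusion with ubiquitin, was at 292 ± 12.1 and 288 ± 29.4 CPM. Of the 18 genes linked to Diamond-Blackfan anemia, an inherited failure of red cell production, 0 were called higher and 0 lower at an unadjusted p of 0.05. Of all tested genes 4.83% were higher and 4.88% lower, shares at which few calls are expected among 18 genes. The median log2 fold change of the 18 was 0.04.

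Paralogs were counted far below the genes they resemble. Per kilobase of the gene length given in the files, Rps27l, a paralog that p53 induces, was at 18.9% ± 1.195 of Rps27 in NR-treated and 20.01% ± 2.31 in non-treated mice (SD, n = 5 each). Rpl22l1 was at 14.9% ± 1.00 and 15.2% ± 2.10 of Rpl22, and Rpl7l1 at 11.3% ± 0.982 and 11.3% ± 0.672 of Rpl7. Rps27rt was at 1.97% ± 0.650 and 1.85% ± 0.285 of Rps27, and Rpl36al at 0.452% ± 0.154 and 0.561% ± 0.240 of Rpl36a. Over these 5 ratios, chosen once other results had been seen, the smallest p of a two-sided exact permutation test was 0.413, for Rps27l, with an adjusted p of 0.936, and the groups overlapped in all 5. The ratios depend on the length used. On principal transcript lengths they were 10.2% in NR-treated and 10.8% in non-treated mice for Rps27l, 8.77% and 8.90% for Rpl22l1, 13.1% and 13.0% for Rpl7l1, 0.652% and 0.611% for Rps27rt, and 0.339% and 0.421% for Rpl36al. Exons of other genes held 63.1% of the principal transcript of Rpl36al and 28.8% of that of Rpl22l1. The part of this overlap in the ratios was not tested.

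Rps27rt shows why paralog levels are uncertain. It lies on chromosome 9 as a single block of 374 bases, and 91.1% of its 50-base words also occur in transcripts of other genes, most often Rps27. For both genes, 30 bases at the annotated RefSeq start are shown because the capitals, the start of a run of 38 identical bases, do not tell the genes apart.
Rps27, chr3:90213622-90213651, minus strand: gctcCTTTCCGGCGGTGACGACCTCCCTAC
Rps27rt, chr9:114982714-114982743, minus strand: cttgCTTTCCGGCGGTGACGACCTCCCTAC
Its level was 1.83, 2.59, 1.51, 1.70 and 2.605 CPM in NR-treated and 2.18, 1.71, 1.98, 1.85 and 1.44 CPM in non-treated mice, from 31 to 58 counts each. Among the 83 tested genes the median share of words found elsewhere was 38.3%, 63 genes had over 25% and 12 had over 75%.

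Per kilobase of the gene length in the files, the highest levels belonged to Rplp1 (1528 CPM per kilobase, mean of 10 mice), Rps15 (740), Rpl36 (724), Rps29 (533) and Rpl17 (519). The lowest were Rpl36al (0.493 CPM per kilobase), Rpl24 (1.11), Rps10 (2.68), Rps27rt (5.19) and Rpl13a (9.23), against a median of 151. Dividing by the length of the principal transcript in GENCODE M21 kept the same 5 genes lowest and 3 of the 5 highest, where Rpl41 and Rps12 took the places of Rpl36 and Rpl17.

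Rps10, Rpl24 and Rpl13a encode regular subunit proteins, and they were counted at a small fraction of the other subunit genes. Rps10 was at 7.57, 4.65, 6.84, 4.50 and 6.60 CPM in NR-treated and 6.06, 6.82, 5.67, 5.69 and 7.66 CPM in non-treated mice. Rpl24 was at 0.882 to 1.48 CPM and Rpl13a at 13.6 to 23.1 CPM over the 10 mice. For these genes and Rpl36al the annotation holds a read-through gene on the same strand that covers much of the principal transcript. Exons of other genes, small RNA genes such as snoRNAs left out, held 91.6% of that transcript in Rps10 and 71.5% in Rpl24. In Rpl36al and Rpl13a they held 63.1% and 59.3%. The gene with the largest overlap was RPS10-NUDT3 for Rps10, Gm28037 for Rpl24, Gm49383 for Rpl36al and Gm45713 for Rpl13a. All 4 read-through genes were listed at 0 counts in all 10 mice. In its default mode the counting tool gives a read that overlaps exons of more than 1 gene to neither gene. Whether this sets the low values was not tested, since the reads were not analysed here.

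The 2 genes with over 50% of the principal transcript inside exons of an opposite-strand gene had higher levels than Rps10, Rpl24, Rpl13a and Rpl36al. Exons of other genes held 68.3% of the principal transcript of Rpl35 and 55.4% of that of Rpl23a. The largest overlap was with Wdr38 for Rpl35 and with Tlcd1 for Rpl23a. Rpl35 was at 182, 159, 175, 163 and 165 CPM in NR-treated and 191, 183, 158, 147 and 173 CPM in non-treated mice, and Rpl23a at 163 ± 10.8 and 169 ± 16.2 CPM. The default counting mode does not use strand, so a read that overlaps exons of both genes of such a pair goes to neither gene here too. Per kilobase of the principal transcript, Rpl35 and Rpl23a were at 179 and 296 CPM, below the median of 407 over the 83 tested genes. Rpl5, Rpl30 and Rpl22l1 were below it too, at 168, 124 and 36.6. They shared 46.6, 34.7 and 28.8% of that transcript with exons of other genes, with the largest overlap on the opposite strand. Levels below the median were also found without such overlap. Rps20 and Rpl29 shared 0% of that transcript and were at 79.4 and 90.9. Rpl32 and Rps25 shared 10.3 and 5.37% and lay above the median, at 499 and 497. Whether the overlap sets any of these levels was not tested. In all, 13 of the 83 tested genes shared at least 1 base of the principal transcript with exons of another gene, small RNA genes left out.

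**Figure D3:**
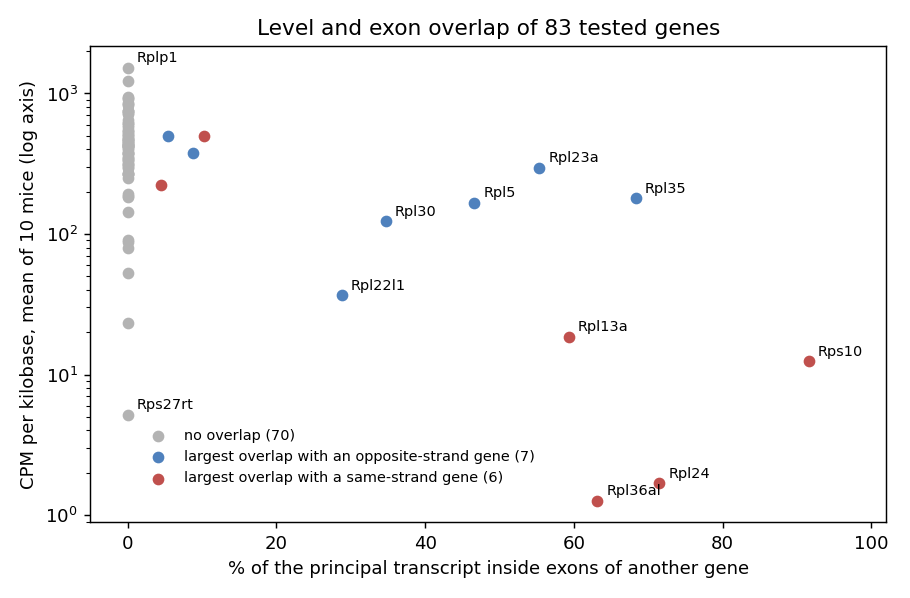
Level per kilobase of the principal transcript (log axis, mean of 10 mice) against the percent of that transcript inside exons of other genes, for 83 tested genes. Small RNA genes are left out of the overlap. Rps10, Rpl24, Rpl36al and Rpl13a, over 50% and with a same-strand gene as the largest overlap, lie between 1.27 and 18.6 CPM per kilobase. Rpl35 and Rpl23a, over 50% and with an opposite-strand gene as the largest overlap, lie at 179 and 296. The median of the 83 genes is 407.

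The ribosomal protein genes rose and fell together between mice of the same group. Vehicle 4, NR 2 and Vehicle 3 had the lowest mean log2 CPM over the 83 genes, and they are described because of it, so the counts that follow test nothing. Vehicle 4 was the lowest of the 10 mice for 50 genes, NR 2 for 20 and Vehicle 3 for 6, and these 3 mice were the highest for 0. Of all tested genes, 37.1% were lowest and 35.5% highest in 1 of these 3 mice. NR 1 was the highest mouse for 31 ribosomal protein genes and Vehicle 1 for 18, beside 12.4% and 13.2% of all tested genes. Over 76 genes at 40 CPM or more, the median deviation from the gene's own mean was -0.15 in Vehicle 4, -0.11 in NR 2 and -0.08 in Vehicle 3 on the log2 scale, against 0.10 in NR 1. The differences were small, with the highest mouse under 1.5 times the lowest for 77 of 83 genes. The SD of log2 CPM over 10 mice had a median of 0.106 for ribosomal protein genes and 0.200 over all tested genes.

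**Figure D4:**
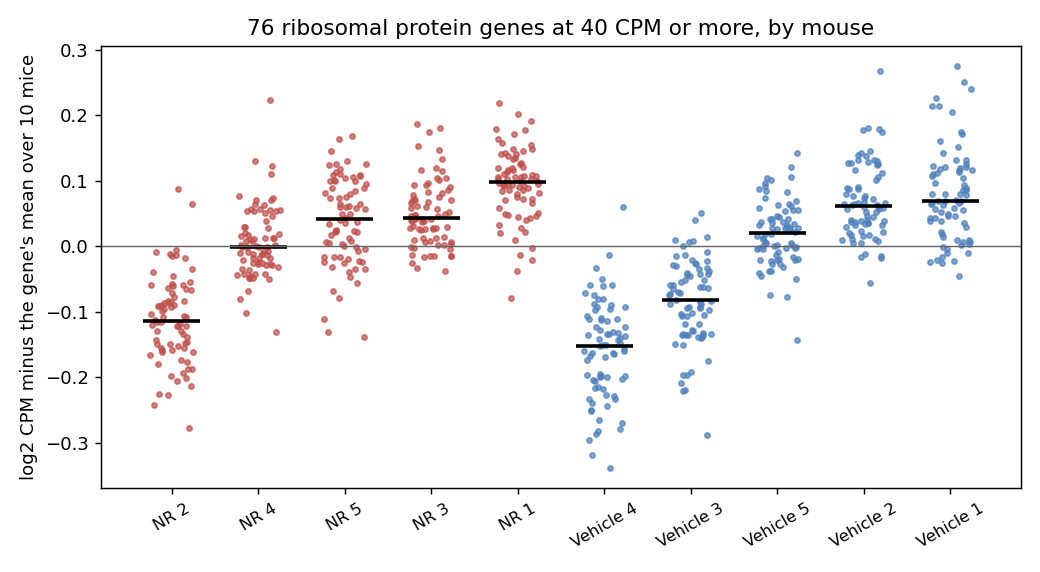
Each point is 1 of 76 genes at 40 CPM or more, plotted as log2 CPM minus the gene's mean over 10 mice, and black lines are medians. NR-treated (red) and non-treated (blue) mice are each ordered by their mean; NR 2, Vehicle 3 and Vehicle 4 have medians of -0.11, -0.08 and -0.15, and the other 7 mice lie between 0.00 and 0.10.

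The genes differed in how widely they ranged. Rpl22, which binds RNA outside the ribosome as well, kept to 202, 195, 194, 192 and 199 CPM in NR-treated and 209, 194, 196, 192 and 191 CPM in non-treated mice, the narrowest range of the 83 genes with a highest level 1.09 times the lowest. Rps2 and Rpsa, both of the small subunit and both lowest in Vehicle 4, ranged 1.46-fold. Rps27l ranged 1.51-fold, and the 5 genes with wider ranges were the 5 lowest per length.

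Some marker lists of other tissues moved with these mouse-to-mouse differences, and others did so only in part. The 6 markers of stria vascularis and fibrocytes summed to 3091, 4787, 3464, 3559 and 3181 CPM in NR 1 to NR 5 and 4068, 3373, 5969, 5365 and 4048 CPM in Vehicle 1 to Vehicle 5. NR 2, Vehicle 3 and Vehicle 4, the lowest for ribosomal protein genes, held the 3 highest sums. They also held the 3 highest sums of the 6 hair cell markers (199, 313 and 348 CPM, against 110 to 141 in the other mice) and the 3 lowest sums of the 8 neutrophil and myeloid progenitor markers (1391, 1396 and 2257 CPM, against 2867 to 5655 in the other mice). All markers of these 3 lists were detected. The 6 markers of proliferating cells were also lowest in NR 2, Vehicle 3 and Vehicle 4 (302, 303 and 219 CPM, against 305 to 753 in the other mice). The 305 CPM was that of NR 1, the highest for ribosomal protein genes. The 8 erythroid markers followed only in part. They summed to 4131 CPM in Vehicle 4, the lowest sum, and to 7555 CPM in Vehicle 3, but to 11344 CPM in NR 2. NR 1, the highest for ribosomal protein genes, had the second lowest sum of the 10 mice, 7407 CPM. The 6 spiral ganglion neuron markers were lowest in Vehicle 3 and Vehicle 4, at 2871 and 3233 CPM. In NR 2 they summed to 4295 CPM, within the 4075 to 4695 CPM of the NR-treated mice. The 4 Schwann cell markers were lowest in NR 2, Vehicle 3 and Vehicle 4 (3269, 3446 and 3617 CPM, against 3647 to 5049 in the other mice). The 5 bone markers were highest in NR 1 (1823 CPM) and lowest in Vehicle 4 (225 CPM). They summed to 433 CPM in NR 2 and 411 CPM in Vehicle 3, above the 349 CPM of Vehicle 5. The 8 B lymphocyte markers were lowest in NR 2 and Vehicle 3, at 34.3 and 36.4 CPM. In Vehicle 4 they summed to 41.0 CPM, above the 37.6 CPM of NR 4. In a bulk sample, fewer cells of a type and less RNA per cell cannot be told apart, and the part of tissue make-up in the ribosomal protein levels was not tested.

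**Figure D5:**
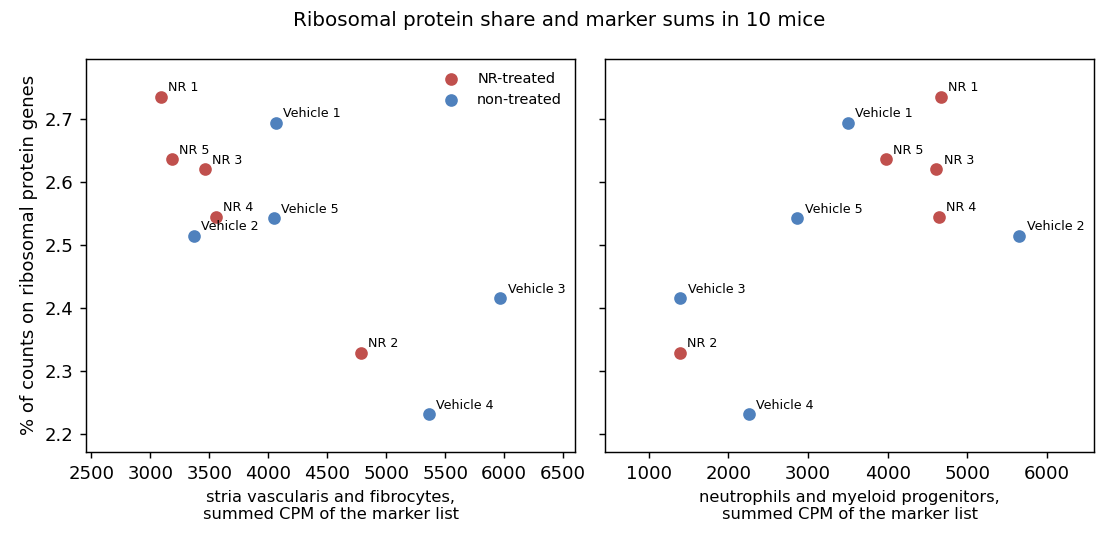
Share of counts on ribosomal protein genes in each of the 10 mice against the summed CPM of 6 stria vascularis and fibrocyte markers (left) and of 8 neutrophil and myeloid progenitor markers (right). NR 2, Vehicle 3 and Vehicle 4 lie at the bottom of both panels, at the right end of the first and the left end of the second.

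The groups themselves differed in some markers at an unadjusted p of 0.05 in edgeR, beside the 4.83% higher and 4.88% lower among all tested genes, and 0 markers passed after adjustment. Of 6 stria vascularis and fibrocyte markers 2 were lower in NR-treated mice and 0 had a log2 fold change above 0, with a median of -0.47. Of 6 hair cell markers 0 were called and 0 were above 0, with a median of -0.46. Of 6 spiral ganglion neuron markers 1 was higher and 6 were above 0, with a median of 0.24. Of 8 neutrophil and myeloid progenitor markers 1 was higher and 7 were above 0 (median 0.43). Of 5 bone markers 1 was higher and 3 were above 0 (median 0.33). Of 4 tested sex genes 1 was lower. Of the Schwann cell, erythroid, B lymphocyte and proliferating cell markers 0 were called. Of 7 tested skeletal muscle markers 6 were higher in NR-treated mice, with sums of 11.2 to 855 CPM against 9.05 to 75.6 CPM, and of 5 tested adipocyte markers 4 were higher, with sums of 34.5 to 73.3 CPM against 6.47 to 22.9 CPM. NR 3 and NR 5 held the 2 highest muscle sums, 855 and 642 CPM. With both left out, 0 ribosomal protein genes were higher and 0 lower at an unadjusted p of 0.05, where 2.46% of all tested genes were higher and 2.04% lower, and 57 of 83 were above 0.

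Most other lists of the translation machinery held no gene past the unadjusted threshold, or few. Fau and Rack1, ribosomal proteins outside the name rule, had log2 fold changes of -0.02 (adjusted p = 0.916 in edgeR) and 0.01 (adjusted p = 0.970 in edgeR). Of 18 translation factors and other mRNAs with a TOP motif, 0 were called higher and 0 lower, with a median of -0.01. Of all tested genes 4.83% were higher and 4.88% lower, a share at which few calls are expected in a list of this size. Their smallest p belonged to Vim, the intermediate filament of mesenchymal cells, with a log2 fold change of 0.25 (adjusted p = 0.582 in edgeR). Of 77 tested mitochondrial ribosomal protein genes, which serve the separate ribosomes of mitochondria, 0 were called higher and 0 lower beside the same shares. Their median was 0.03.

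A few regulators and assembly genes passed the unadjusted threshold, all of them lower in NR-treated mice, and 0 passed after adjustment. Of 14 genes of RNA polymerase I, which makes the large ribosomal RNA precursor, 1 was lower, Taf1d, with a log2 fold change of -0.30 (adjusted p = 0.423 in edgeR). Of 90 ribosome assembly factors 2 were lower, Utp14a at -0.22 and Bop1 at -0.19, and 42 of 90 were above 0. Of 16 genes of the mTORC1 pathway and regulators of TOP mRNAs, 2 were lower, Sesn2 and Tsc1, at -0.28 and -0.17. Sesn2 is a stress-induced inhibitor of mTORC1, and Tsc1 is another inhibitor of it. The list as a whole leaned the same way, with 3 of 16 above 0 and a median of -0.05. Sesn2 was at 14.9, 15.7, 16.1, 15.7 and 15.7 CPM in NR-treated and 20.4, 16.6, 18.6, 18.1 and 20.9 CPM in non-treated mice, with no overlap (adjusted p = 0.420 in edgeR). The shares that were lower in these lists stand beside 4.88% of all tested genes.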

How the data were processed

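Counts were used as the authors deposited them: whole reads per gene and mouse, not normalized, from poly(A)-selected paired-end libraries aligned to mm10 with STAR 2.6.1d and counted with featureCounts 1.5.0 in its default mode, per the labels and the study's methods. That mode is known to leave out reads that match several places or several genes, which bears on genes with pseudogene copies. The annotation release is not given in the sources used here; exons and transcripts were taken from GENCODE M21.

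Genes were filtered with filterByExpr, scaled by TMM and tested with edgeR 4.0.16 (quasi-likelihood, two-sided, Benjamini-Hochberg over 18329 genes), 5 NR against 5 Vehicle mice, without covariates, in R 4.3.3. CPM uses TMM library sizes; log2 CPM used a prior count of 2. DESeq2 1.42.0, limma 3.58.1 (voom), other scalings and filters, a replicate block and leaving out each mouse were alternatives. The ratio tests and figures used python 3.11.15, with all 252 labelings. Genes to be named were those at an unadjusted p of 0.05, those with non-overlapping groups, the 5 highest and 5 lowest per length, the paralogs with their base genes, stalk, 5S-binding, ubiquitin-fused and non-ribosomal members, and up to 3 genes per pathway list by p. Rpl10, Rpl29, Rpl41, Rpl35, Rpl23a, Rpl30, Rpl32, Rps2, Rpsa, Rps12, Rps20 and Rps25 were named after their values were seen. The members and lists were chosen with earlier results of these data known. The replicate numbers only name the mice; p-values measure the spread between these 10 samples. No 2 libraries agreed within sampling noise. One gene of a pathway list is not reported here.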

Additional observations from a re-analysis of the deposited data

Results flagged for a closer look

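Among 62 groups of 5 mice looked at (28 named genes and 3 share measures, in each treatment group), 5 held a mouse far from the other 4, where chance gives about 1 in 20. The low mouse NR 2 among NR-treated mice made 4 of them. It was at 13.6 CPM for Rpl13a, where the next lowest was 19.2, at 260.5 CPM for Rpl36, next to 283, at 455.6 CPM for Rpl41, next to 525, and at 408.3 CPM for Rps15, next to 466. The last was the high mouse NR 1 for Rpl7, at 523.1 CPM, where the next highest NR-treated mouse was at 472.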

How the results depend on the processing

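Across the alternatives, members lower at an unadjusted p of 0.05 and members past an adjusted p of 0.05 stayed at 0. Members higher at an unadjusted p of 0.05 stayed at 0 except without NR replicate 5 (1, Rps27, 0.15 on the log2 scale); leaving out each mouse in turn gave 0 to 1. The number above 0, 65 of 83, was 42 with the library size set to the members' summed counts, which centres their fold changes near 0 by construction, 75 with upper quartile factors, and 44 (without Vehicle 4) to 78 (without Vehicle 2) when 1 mouse was left out. The median log2 fold change lay between 0.00 and 0.06 in all alternatives. The difference in share of counts, 0.0935 percentage points, lay between 0.0315 (without Vehicle 4) and 0.155 (without NR 2). With the replicate number as a replicate block, 0 members were higher and 0 lower, and 68 were above 0. Same-numbered mice did not deviate together (correlations of -0.22 to 0.17 over the 5 numbers, and NR 1 alone correlated best with its own number), so the samples share only a number. Over all genes, higher calls went from 886 to 1414 with no filter and lower calls from 894 to 484 without NR 3, and DESeq2 called 105 genes at an adjusted p of 0.05, of which 0 were members. Without both NR 3 and NR 5, chosen after seeing the data, 460 genes were higher and 383 lower. Rpl36al, with 6 to 25 counts, went from -0.21 to -0.58 there. The counts limit Rpl24, Rps27rt, Rpl36al and Rpl39l most, and the reads lost to pseudogenes and overlapping genes were not measured.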
